A study of Caenorhabditis elegans with 2 samples.

Results

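Far peaks of RNA polymerase II were peaks of AMA-1 whose summit lay more than 1000 bp from every annotated protein-coding gene, and 354 of the 10000 peaks of highest signal (3.54%) met that rule. They were chosen by their signal in the list called on both replicates pooled and by the distance of their summit from coding genes, so neither value is a finding about them and neither is tested. The remaining 9646 peaks lay inside a coding gene or within 1000 bp of one and serve as the other peaks below. Chromatin immunoprecipitation and sequencing (ChIP-seq) had been done with an antibody against AMA-1, which is the largest polymerase subunit, on whole early embryos of the Caenorhabditis elegans strain N2, males and females pooled. The 2 samples were biological replicates of this 1 group, with no treatment, mutation or second stage to compare, so every value here is a description. The peak lists carry no expression values, so the labelled stage could not be checked against marker genes. Whole embryos mix cell types, and a ChIP-seq peak carries no strand.

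RNA polymerase II transcribes messenger RNA genes and also the primary transcripts of microRNAs, most small nuclear RNAs and long noncoding RNAs, whereas transfer RNAs are made by RNA polymerase III. In the worm, the annotated start of a coding gene is often a trans-splice site, and the polymerase begins at a place upstream that the gene model leaves out. A microRNA is cut from a hairpin and recognises its targets mainly through its seed, the bases 2 to 8 from its 5′ end.

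Mature microRNAs at the far peaks of highest signal are shown first because those peaks lie on or within 200 bp of their hairpins. The set leaves out mir-8196a, which lies 21 bp from the far peak X 2329145 (signal 83.51). Sequences were read from the RefSeq genome of WBcel235, the sequence of build ce11, 5′ to 3′ on the strand of the gene, with T in place of U and with the seed in capitals. For mir-52 (chrIV:14034024-14034047, + strand) the 5′ arm is given. The 3′ arm is given for mir-42 (chrII:11889870-11889891, +), mir-43 (chrII:11889970-11889992, +), mir-44 (chrII:11890083-11890103, +), mir-80 (chrIII:8865285-8865307, -), mir-73 (chrX:2368826-2368848, +) and mir-74 (chrX:2369103-2369124, +).
mir-52: cACCCGTAcatatgtttccgtgct
mir-42: tCACCGGGttaacatctacaga
mir-43: tATCACAGtttacttgctgtcgc
mir-44: tGACTAGAgacacattcagct
mir-80: tGAGATCAttagttgaaagccga
mir-73: tGGCAAGAtgtaggcagttcagt
mir-74: tGGCAAGAaatggcagtctaca
The seed GGCAAGA is shared by mir-73 and mir-74, and the 5 other seeds shown all differ.

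Windows at or beside 6 summits show kinds of sequence found at far peaks, all on the + strand of ce11. In the window at mir-52 (chrIV:14033962-14034111), the highest far peak, capitals mark both mature arms of the hairpin. For the summit at the 5′ end of the noncoding gene C30E1.9 (chrX:16929992-16930111) and for the highest summit with no annotated gene within 1000 bp (chrIII:13061369-13061488), capitals mark the 10 bases around the summit. Capitals mark runs that hold GAGAGAGA, read on either strand, at a summit upstream of din-1 (chrII:11635969-11636088) and beside one upstream of hbl-1 (chrX:5820187-5820306), where the window starts past the summit at X 5820153. In the window on chromosome III near Y75B8A.50 (chrIII:12132014-12132163), capitals mark tandem copies of TTAGGC, the unit of the worm telomere repeat.
mir-52 window: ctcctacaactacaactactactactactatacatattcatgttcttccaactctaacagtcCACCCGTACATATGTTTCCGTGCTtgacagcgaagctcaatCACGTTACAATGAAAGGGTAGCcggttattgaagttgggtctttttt
C30E1.9 window: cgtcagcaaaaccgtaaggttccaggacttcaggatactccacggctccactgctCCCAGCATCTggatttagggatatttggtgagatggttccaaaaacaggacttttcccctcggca
III 13061429 window: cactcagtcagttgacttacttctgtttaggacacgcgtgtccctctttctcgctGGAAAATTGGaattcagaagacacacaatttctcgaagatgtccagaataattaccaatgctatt
din-1 upstream window: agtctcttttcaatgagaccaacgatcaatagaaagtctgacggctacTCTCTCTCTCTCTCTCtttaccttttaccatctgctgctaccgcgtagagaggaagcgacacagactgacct
hbl-1 upstream window: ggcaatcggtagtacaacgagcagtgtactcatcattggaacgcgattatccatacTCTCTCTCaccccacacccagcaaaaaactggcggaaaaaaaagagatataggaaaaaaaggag
Y75B8A.50 window: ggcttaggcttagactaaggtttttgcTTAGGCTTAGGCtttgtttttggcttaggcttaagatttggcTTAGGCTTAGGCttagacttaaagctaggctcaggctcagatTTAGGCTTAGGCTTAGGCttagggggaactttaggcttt
The run in the din-1 window is 16 bases long, and the one in the hbl-1 window is 8 bases.

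Sequence more than 1000 bp from every coding gene made up 19.3% of the genome (19.31 Mb) and held 18.3 far peaks per Mb, against 119 peaks per Mb in the rest. Signal is the authors' own value per peak whose scale the sources used here do not state, and it serves only to order peaks within a list. It ran from 19.29 to 1410 among far peaks with a median of 25.49, against a median of 26.4 among the other peaks. The median rank was 5436 for far peaks and 4988 for the others. Most far peaks (343, or 96.9%) had the common width of 370 bp, and merging overlapping ones left 337 regions. The share of far peaks among all peaks went from 2.62% in ranks 1 to 724 to 3.06% in ranks 725 to 2000, 3.53% in ranks 2001 to 5000 and 3.8% in ranks 5001 to 10000. The authors' optimal list holds the upper 724 peaks, or 7.24% of the 10000, and 19 of the far peaks (5.37%) were in it.

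Distances to the nearest coding gene ran from 1004 to 10857 bp with a median of 2140 bp, where positions spaced evenly over far sequence had a median of 2444 bp. A distance of at most 2000 bp was found for 167 far peaks (47.2%, against 38.9% of far positions), 2000 to 5000 bp for 141 (39.8% against 44.0%) and over 5000 bp for 46 (13.0% against 17.1%). The nearest coding gene had its 5′ end toward the summit for 244 far peaks (68.9%), and the same held for 64.3% of far positions. Just inside the distance limit lay summits near the actin gene act-2 (V 11075773, 1004 bp, signal 43.01), Y67D8B.1 (IV 3168942, 1004 bp, 19.98), F55A4.3 (X 1026118, 1008 bp, 24.4), the autophagy gene bec-1 (IV 5665439, 1014 bp, 33.63) and hmg-1.1 (II 14249680, 1015 bp, 166.4). Just outside lay those near ech-2 (IV 11857351, 1000 bp, 31.54), Y17D7C.2 (V 18720986, 999 bp, 22.25), kpc-1 (I 11674944, 997 bp, 33.74), unc-62 (V 4496464, 997 bp, 23.2) and R12B2.6 (III 5835148, 995 bp, 31.78). At the signal limit, the last far peak had rank 9993 (signal 19.29) and the next far summit in the full list rank 10009 (19.27). The full list of 30000 held 1416 far summits.

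A noncoding gene lay within 200 bp of 117 far peaks (33.1%, exact binomial 95% interval 28.2 to 38.2). Over all 10000 peaks the share was 8.13%, and among the other peaks it was 7.22%. Of the bases of far sequence, 26.3% lay that near a noncoding gene. With piRNA genes left aside this was 20.1%, where the far peaks had 31.6%. The share among bases outside far sequence was not measured. The intervals treat peaks as independent and cover counting error only. The summit was inside a noncoding gene for 79 far peaks. A further 78 had a noncoding gene more than 200 and at most 1000 bp away, and 159 (44.9%, 39.7 to 50.3) had no annotated gene of any class within 1000 bp, where 55.9% of far bases have none.

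The share with a noncoding gene was highest among the upper ranks. It was 73.7% (14 of 19) in ranks 1 to 724, 43.6% (17 of 39) in ranks 725 to 2000, 32.1% (34 of 106) in ranks 2001 to 5000 and 27.4% (52 of 190) in ranks 5001 to 10000. The other peaks had 16.2%, 7.28%, 6.81% and 6.13% in the same bands. In the lowest band the share of the far peaks was close to the 26.3% of far bases, and in the highest it was well above it.

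**Figure D1:**
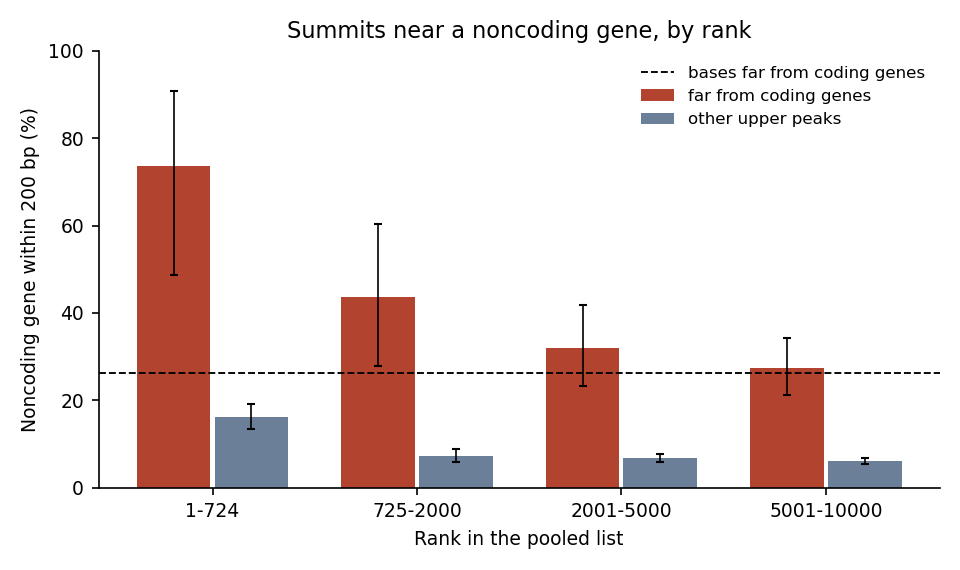
Share of summits with a noncoding gene within 200 bp (%, y axis) by rank in the pooled list (x axis), for far peaks (red) and the other upper peaks (grey-blue), with exact binomial 95% intervals of the peaks in each bar. The dashed line is the share of far bases, 26.3%, and the red bars descend from 73.7% to 27.4% toward it.

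By class, far peaks stood above far sequence at microRNA, lincRNA and unclassed ncRNA genes and below it at piRNA genes. The far-sequence share was outside the 95% interval in each case. It was also just below the interval for snoRNA genes, which rests on 3 far peaks, 1 of them also a summit at C30E1.9. The intervals were not adjusted for the number of classes. MicroRNA genes lay within 200 bp of 8 far peaks (2.26%), against 0.202% of far bases and 0.404% of the other peaks. Genes of the broad annotation class ncRNA lay near 65 (18.4%, against 5.63% and 4.41%), and long intergenic (lincRNA) genes near 14 (3.95%, against 1.05% and 0.114%). Leaving out the 9 summits at the ncRNA gene C30E1.9, 56 of 345 (16.2%) had an ncRNA gene. Pseudogenes, disabled copies that are often not transcribed, lay near 36 (10.2%, 7.22 to 13.8), and the 13.2% of far bases is within that interval. The genes of piRNAs, short germline RNAs that guard against foreign sequence, lay near 6 (1.69%), against 6.83% of far bases. Few far peaks lay at the remaining classes, with 3 at snoRNA genes (0.847%, 0.175 to 2.46, against 0.148% of far bases but 0.974% of the other peaks), 1 at an snRNA gene, 1 at a tRNA gene and 0 at rRNA or antisense RNA genes. A summit near several genes counts once in each class, and in all 130 noncoding genes lay within 200 bp of a far peak, 16 of them near at least 2.

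**Figure D2:**
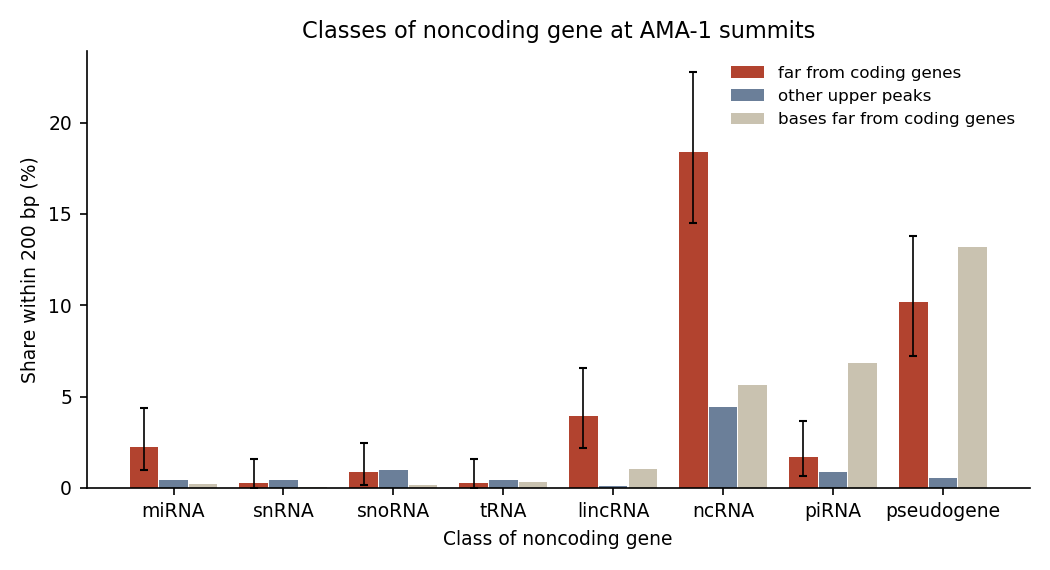
Share within 200 bp of each class of noncoding gene (%, y axis) for far peaks (red, with exact binomial 95% intervals), the other upper peaks (grey-blue) and bases far from coding genes (beige). Red exceeds beige beyond its interval for miRNA, snoRNA (3 far peaks), lincRNA and ncRNA and lies below it for piRNA. The intervals for snRNA (1 far peak), tRNA and pseudogene span the beige bar.

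MicroRNA genes held the highest far peak and 6 of the 19 in the optimal list. At mir-52, of the mir-51 family, the summit IV 14034037 had a signal of 1410 and rank 1 in the pooled list and in both replicates. It lay 8558 bp from the nearest coding gene, Y37A1B.7, and a second summit of the same interval (IV 14034241) had a signal of 106.1. A further summit of the same far stretch, IV 14032670 near the ncRNA gene Y37A1B.332, had 80.61, with rank 374 in replicate 1 and 215 in replicate 2. The far stretch around mir-52 held 5 far summits in all, each in both replicate lists.

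The summit II 11889900 (134.7) fell in the hairpin of mir-42, with mir-43 and mir-44 within 200 bp. Its mature mir-42, shown above, belongs to the mir-35 family that is needed for embryogenesis. Its best overlapping peak ranked 51 in replicate 1 and 52 in replicate 2, so both replicates placed it alike. At mir-80, of the mir-58 family, the summit III 8865412 (87.86) lay 45 bp from the hairpin on the upstream side, and the replicates ranked it 179 and 233. At mir-73 and mir-74, the pair with a shared seed, the summit X 2368921 (58.58) had ranks of 810 and 645. These loci had similar ranks in the replicates, whereas the summit at mir-8196a and the lincRNA gene linc-154 (X 2329145, 83.51) ranked 13428 in replicate 1 and 51 in replicate 2.

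The ncRNA gene C30E1.9, the longest near a far peak, carried more far summits than any other noncoding gene, a count not set against gene length. It is annotated on the + strand of X from 16929914 to 16944683, a length of 14770 bp, and no function is given for it in the files. The highest of its 9 summits (X 16930052, 430, pooled rank 5) lay 138 bp past its 5′ end, with rank 5 in replicate 1 and 6 in replicate 2. The next 3 lay 342 bp (76.1), 1010 bp (49.22) and 1583 bp (120.6) past the 5′ end. No summit among the upper 10000 followed until 11273 bp (42.32), and the last 4 lay at 12797 bp (23.69), 13504 bp (31.27), 14201 bp (39.83) and 14837 bp (37.47), the last just beyond the 3′ end. The summits therefore formed a group of higher signal at the 5′ end and one of lower signal at the 3′ end. In the 5′ group, the summits at 138 and 342 bp share an interval and the same best replicate peaks, of ranks 5 and 6. These ranks are therefore no separate measure of the summit at 342 bp. The summit at 1583 bp ranked 98 in replicate 1 and 47 in replicate 2. That at 1010 bp ranked 103 in replicate 1 with no overlapping peak in replicate 2. In the 3′ group, in the same order as above, replicate 1 ranked the summits 781, 909, 1510, 3626 and 409. Replicate 2 ranked them 4471, 21408, 14952, 1471 and 15619.

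**Figure D3:**
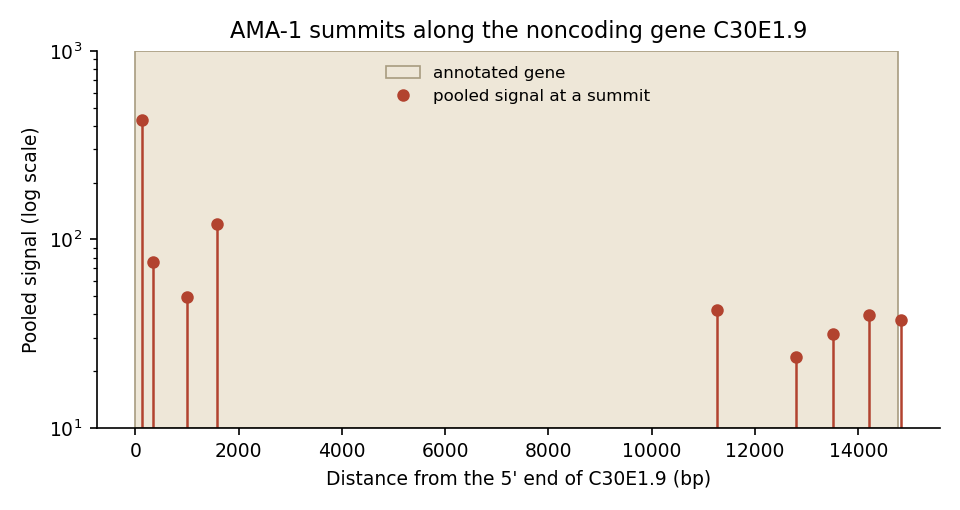
Pooled signal (log scale, y axis) of the 9 far summits at C30E1.9 against their distance in bp from its annotated 5′ end (x axis), with the gene shaded. The summits sit within 1583 bp of the 5′ end or beyond 11273 bp, and the highest, at 138 bp, has a signal of 430.

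Other ncRNA genes at high far peaks were Y48B6A.23 and W05H9.3. The summit at Y48B6A.23 (II 14249680, 166.4) also lay 1015 bp upstream of hmg-1.1, a gene for a high mobility group protein, with best replicate ranks of 68 and 24. The summit in W05H9.3 (X 6252507, 118.1) lay 233 bp past that gene's 5′ end and 9798 bp from the nearest coding gene, got-2.2. Its replicate ranks were 70 and 77, and a weaker summit (X 6254208, 48.5) lay 423 bp beyond the gene. The single far peak at an snRNA gene (V 14028646, 73.96) lay within 200 bp of T08G5.11 and of the ncRNA gene T08G5.18. Its window was 55.9% single-copy, and the replicates ranked it 464 and 86. The single one at a tRNA gene was X 16618014 (42.61), 51 bp from WBGene00022916, and the highest at a snoRNA gene was I 5707065 (33.09), at T19B4.8 and in replicate 1 only.

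Pseudogenes and lincRNA genes carried far peaks with median signals of 25.1 and 25.7, close to the 25.49 of all far peaks. The median at microRNA genes was 85.7, from 8 far peaks that include 2 at mir-52 and 2 at mir-74. The highest at a pseudogene (II 8788979, 54.31) was 1 of 4 summits at WBGene00014309 and ranked 4365 in replicate 1 and 354 in replicate 2. Another pseudogene, WBGene00022521, which is 11159 bp long, lay within 200 bp of all 6 summits of a far stretch between ZC132.3 and srh-192 on V, with signals from 21.83 to 35.97. All 6 were in both replicate lists, although none reached the optimal list. The lincRNA gene linc-8 on II had 3 summits, with signals of 20.57, 26.83 and 22.47. At linc-11 and the piRNA gene 21ur-14793, the summit II 3373982 (43.75) was the highest of those at a piRNA gene.

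Far peaks with no annotated gene within 1000 bp numbered 159, had a median signal of 25.33, and included 2 of the optimal list. The highest, III 13061429 (87.43), lay 5987 bp upstream of F54F12.1 and ranked 135 in replicate 1 and 260 in replicate 2. Its far stretch, from F54F12.1 to Y39E4B.6, held 7 far summits and no noncoding gene within 200 bp of any of them, and 6 of the 7 were in both replicate lists. The next, II 11636767 (62.94), lay 3158 bp upstream of din-1, a nuclear receptor corepressor gene, and ranked 123 and 5030. Nearer to din-1 lay II 11636077 (112.8; ranks 65 and 102), the summit with the GAGAGAGA run shown above, and II 11634897 (68.03; ranks 183 and 725). Those nearer summits had the snoRNA gene ZK20.9 at 750 and 328 bp. The remaining 3 of the 5 highest with no gene were III 4275159 (50.66), 1037 bp downstream of the RNA-binding protein gene sup-26, X 14502277 (47.12), near M163.1, and V 19963453 (45.71), 2247 bp upstream of srh-171, a chemoreceptor-type gene.

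Many far peaks lay together. The genome held 5136 far stretches, of which 210 had a far peak and 69 had at least 2, and those 69 took 213 of the 354. Of the 354, 34 lay in 17 regions of overlapping far peaks. Stretches with a far peak had a median length of 5627 bp against 2214 bp over all. A longer stretch has more room for summits, so this difference is no finding about the peaks. The sharing of stretches was not compared with stretches of equal length. After the stretch of C30E1.9, the most summits were 7 each between pop-1 and ccb-2 on I (21.76 to 26.98), between bed-2 and fbxa-220 on III (19.94 to 29.96), beside Y75B8A.50 on III (21.0 to 48.69) and in the F54F12.1 stretch named above. The product of pop-1 is the TCF factor of Wnt signalling in early blastomeres, and all 7 summits of its stretch were in both replicate lists. A stretch between dpyd-1 and dlg-1 on X held 5 (23.32 to 33.46), all in both lists. The product of dlg-1 is a scaffold protein of epithelial junctions.

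Both replicate lists held a peak overlapping 311 far peaks by at least 1 bp (87.9%, 84.0 to 91.1). The share was 91.1% over all 10000 peaks and 91.2% among the others. The pooled list was called on the same libraries, so this overlap is no independent check. A further 25 were in replicate 1 only, 18 in replicate 2 only and 0 in neither. By band the far peaks had 100% in ranks 1 to 724, 94.9% in ranks 725 to 2000, 97.2% in ranks 2001 to 5000 and 80% in ranks 5001 to 10000. The other peaks had 99.3%, 98.2%, 94.5% and 86.2%, so 38 of the 43 far peaks found once were in the lowest band, where the far share (interval 73.6 to 85.4) also lay below that of the other peaks. The share was 88.9% with a noncoding gene within 200 bp and 89.3% with no gene within 1000 bp.

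Each replicate list reached 30000 peaks, and a stricter rule left fewer. Among the upper 10000 of both replicates, 145 far peaks (41.0%) were found again, against 48.1% of the other peaks. Each replicate alone had 66.4% of the far peaks in its upper 10000, against 71.6% (replicate 1) and 70.6% (replicate 2) of the other peaks. All 19 in the optimal list were in both replicates, as were 99.3% of the other 705 peaks in ranks 1 to 724. That list was thresholded by the irreproducible discovery rate procedure, so this presence is no separate check. Of the 19, which formed 17 regions, 15 had a best overlapping peak in the upper 1000 of each replicate. Neighbouring summits could share such a peak.

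**Figure D4:**
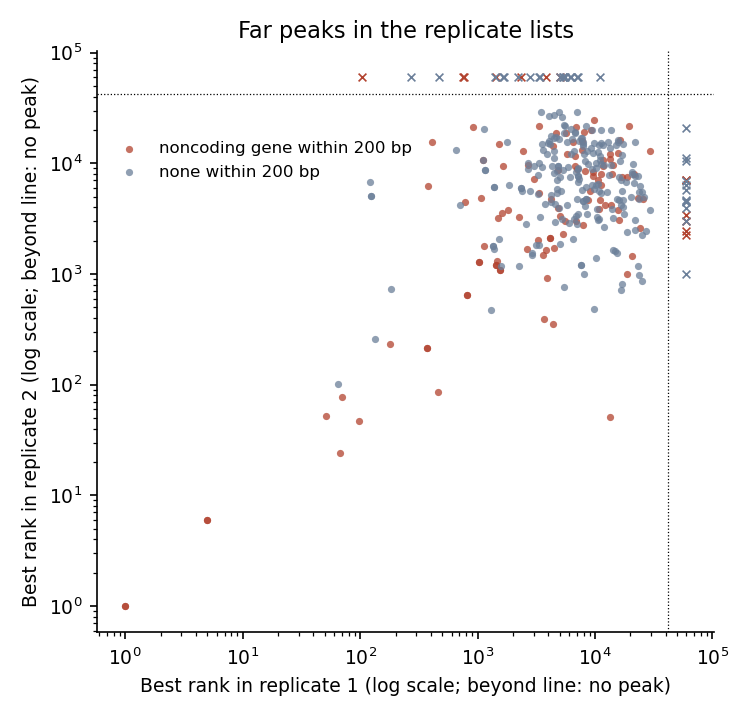
Best rank of an overlapping peak in replicate 1 (x axis, log scale) and replicate 2 (y axis, log scale) for each far peak, red with a noncoding gene within 200 bp and grey-blue without. Crosses beyond the dotted lines are the 25 far peaks with no peak in replicate 2 and the 18 with none in replicate 1, and a few red points reach rank 100 in both while most points lie beyond rank 1000.

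Far peaks found in 1 replicate were not always weak there. The highest, III 4275159 (50.66), ranked 1403 in replicate 1 and had no peak in replicate 2. Those of replicate 1 only ranked from 103 to 10937 in it, with a median of 3352. Those of replicate 2 only ranked from 992 to 20730, with a median of 4602. The highest of these by pooled signal were IV 4769372 (25.58), on the ncRNA gene R11E3.18 and ranked 3436, III 11475271 (25.35), which holds tandem TTAGGC and ranked 992, and III 3811658 (24.73), 1360 bp from the dosage compensation gene dpy-27 and ranked 5730. Replicate ranks could lie far apart among far peaks of high and of low signal, as X 2329145, II 11636767 and II 8788979 above show, and so does II 3597049 (56.69), which ranked 121 in replicate 1 and 6810 in replicate 2. Another, V 1222357 (32.32), holds tandem TTAGGC and ranked 25267 in replicate 1 and 873 in replicate 2.

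Chromosomes differed in how many far peaks they held and in how much far sequence they have. Chromosome I held 79 far peaks, II 61, III 67, IV 48, V 45 and X 54. Per Mb of far sequence this came to 37.2 on I, 23.0 on II, 30.7 on III, 12 on IV, 12.1 on V and 11.7 on X. The other peaks had 171, 130, 174, 114, 73.6 and 74.6 per Mb of the remaining sequence, so I and III were densest on both counts. The ratio of the far density to the other density was highest on I (0.217) and lowest on IV (0.105), against 0.154 over all. On IV, 31.5% of far sequence (1.26 Mb) lay within 200 bp of a piRNA gene and held 3 far peaks (2.37 per Mb), and the rest of it held 45 (16.4 per Mb). X held 15.3% of far peaks against 10.3% of all peaks, with 26% of its length far from coding genes. Without the 9 summits at C30E1.9 its share was 13.0%. Of the 19 far peaks of the optimal list, 7 lay on II, 6 on X, 3 on IV, 2 on III, 1 on V and 0 on I. Neighbouring summits add to these counts: all 3 on IV belong to the mir-52 stretch, 3 on X to C30E1.9 and 3 on II to the region upstream of din-1. On I the highest far peak (I 6173034, at the ncRNA gene T09B4.17) had a signal of 45.2.

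The arms, taken as the outer 25% of a chromosome at each end, held 198 far peaks (55.9%), against 42.7% of all peaks and 54.1% of far sequence. The densities were 19.0 per Mb in the arms and 17.6 in the middle. Single chromosomes departed from this in both directions. On II the arms had 28.4 per Mb and the middle 17.8, on III the arms had 38.5 per Mb and the middle 22.9, and on V they had 16.0 and 8.1. The order was turned on I, with 31.3 in the arms and 43.9 in the middle, on IV, with 10.3 and 14.6, and on X, with 11.1 and 12.5. The far peak nearest to any chromosome end was II 15266735, 12686 bp from the right end of II with a signal of 23.64, and the nearest on V was V 19011, 19010 bp from the left end with 22.42.

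**Figure D5:**
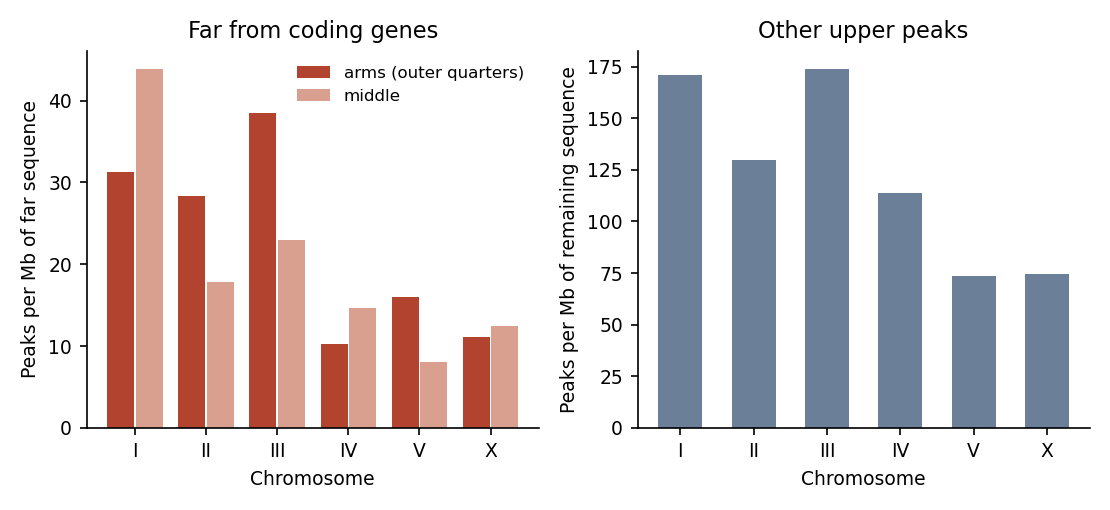
Left, far peaks per Mb of far sequence (y axis) in the arms (dark) and the middle (light) of each chromosome (x axis). Right, the other upper peaks per Mb of the remaining sequence, on a different scale. Chromosomes I and III stand highest in both panels, and on I the middle exceeds the arms, 43.9 against 31.3.

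Windows of 300 bp around far summits resembled those of the other peaks more than far sequence in base composition. The median GC content was 40.0% at far peaks, 40.0% at the other peaks and 33.7% in evenly spaced windows of far sequence. Windows with under 50% single-copy sequence, read as stretches of 31 bases that occur once in the genome, made up 0.847% of far peaks (3), 0.301% of the others and 15.1% of far windows. More than 50% of the window was repeat-masked at 11.0% of far peaks, 12.1% of the others and 30.1% of far windows. Reads from repeated sequence are hard to place, and the part of this in the low share was not tested.

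The letters GAGAGAGA, on either strand, occurred in 42 far windows (11.9%), against 3.52% of the other peaks and 2.63% of far windows. In each replicate's own upper 10000, the far peaks had it at 11.0% in replicate 1 and 9.81% in replicate 2. The pooled list was called on the same libraries, and 65.4% and 62.1% of these far peaks overlapped those of the pooled list. The 2 shares are therefore no independent check, and the other peaks of each replicate list were not searched for it. Of the 42, 27 had no gene within 1000 bp, 35 (83.3%) were in both replicate lists, 18 lay on I and 1 was in the optimal list. Over all far peaks these shares were 44.9%, 87.9%, 22.3% and 5.37%. Of the 18 on I, 3 lay in the stretch that ends at ztf-6. The highest were the din-1 summit shown above (112.8), I 11203597 upstream of ztf-6 (43.3), I 11673419 upstream of kpc-1 (41.79) and X 5820153, 1989 bp upstream of hbl-1 (40.13), the Hunchback-like factor of developmental timing. These examples were chosen after their values were seen. The hbl-1 summit also lies on the ncRNA gene F13D11.20, ranked 1501 and 3226 in the replicates, and has its run 94 bp from the summit.

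Tandem TTAGGC occurred at 5 far peaks (1.41%), against 0.29% of the other peaks and 0.419% of far windows. All 5 lay in the arms, 3 on III and 2 on V, those on III with a pair of neighbouring summits at Y75B8A.50, and 4 were in both replicate lists. The highest was III 12132089 (48.69), at the ncRNA gene Y75B8A.50, 1651712 bp from the end of its chromosome. None of the 4 other motifs exceeded both the other peaks and far windows. TGATAA, the GATA factor core, was in 19.2% of far peaks, 20.3% of the others and 24.8% of far windows. TATAAA, the TATA box, was in 18.4%, 19.3% and 31.9%. CACGTG, an E-box, was in 5.93%, 7.34% and 3.9%, and a run of 8 T was in 28.2%, 23.6% and 34.1%. A match is a description of letters and shows no bound factor.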

How the data were processed

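The authors deposited AMA-1 peak lists for 2 biological replicates on ce10 and ce11, and the ce11 lists were analysed here. Per the deposited text notes, the lists of 30000 peaks include background and were made as input for the irreproducible discovery rate procedure, and the optimal list was thresholded by it. Each peak has a deposited signal value, the authors' own, on a scale that no source used here states. The aligner and peak caller were not given in the sources used here, and read depth is unknown. A single control served the authors' calls and was not analysed here.

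The 10000 pooled peaks of highest signal were set against protein-coding genes of Ensembl WBcel235. Noncoding genes (any other class) were sought within 200 bp of the summit. A replicate held a peak if an interval overlapped by at least 1 bp, and its best rank is given, so neighbouring summits can share 1 replicate peak. Overlapping or antisense genes cannot be told apart. Far sequence is every base that meets the distance rule, sampled each 200 bp for distances. Windows of 300 bp, 31-base single-copy counts and motif matches came from the RefSeq genome of the same build. Scripts used Python 3.11.15, pandas 2.3.3, numpy 2.4.6 and scipy 1.17.1, and lookups were tested on simulated data. No test was run. Regions named were the 25 highest, the highest of each class and chromosome, the 5 highest with no gene, those at chromosome ends and at the limits, and the highest found in 1 replicate. The regions and settings were chosen with earlier results of these data known, and the motif examples and genes with several summits after their values were seen. Other settings tried were other distances, list lengths, windows, overlaps and each replicate alone.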

Additional observations from a re-analysis of the deposited data

How the results depend on the processing

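Over 500 bp from coding genes, there were 617 far peaks, 37 in the optimal list, with 28.0% near a noncoding gene and 25.8% with no gene near. Over 2000 bp, the values were 187, 12, 39.6% and 39.0%, with 65.8% on arms. The upper 5000 peaks gave 164 far peaks, of which 39.6% were near a noncoding gene, 97.0% in both replicates and 20.7% on X. The upper 2000 gave 58, with 53.4%, 96.6% and 29.3%, 32.8% with no gene near and 62.1% on arms. The shares of all peaks in these shorter lists on X or on arms were not measured. Several of their far peaks on X are summits at C30E1.9. Counting pseudogenes as coding gave 25.7% near a noncoding gene and 52.3% with no gene near. A 500 bp window gave 45.2% and 54.8%. For presence in both replicate lists, an overlap of 50% gave 78.8%, summits within 100 bp gave 65.3% and the upper 10000 of each gave 41.0%. Far peaks taken from 1 replicate's own list had a peak in the other in 72.0% to 72.8%, and 65.4% (replicate 1) and 62.1% (replicate 2) of them overlapped the far peaks of the pooled list. Wider arms, each as long as the middle, held 74.6%. The shares of far sequence and of all peaks in the wider arms were not measured. Nor was the share on arms of sequence over 2000 bp from coding genes. Another 49 values stayed close, shares within the 95% interval of the value reported and counts within a fixed fold range of it. With RefSeq genes, a choice made after seeing the data, there were 379 far peaks, among them 351 of the 354. The lists carry no read counts, so depth sets no limit that can be stated. No paired analysis was possible because the result comes from no test.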
